A study of Arabidopsis thaliana with 24 samples.

Results

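The cysteine-rich receptor-like kinases (CRKs) of Arabidopsis thaliana were described as a family, taking the 42 loci that carry the names CRK1 to CRK42. Of these, 39 were in the count table and all 39 had enough counts to be tested, among 21407 loci counted and 21015 tested. CRK1, CRK33 and CRK35 are not analysed here. A tandem array on chromosome 4, from AT4G23130 (CRK5) to AT4G23320 (CRK24), holds 20 of the 39 members side by side over 74.2 kb (TAIR10.1, chr4:12117491-12191704). The other 19 lie elsewhere, most of them also on chromosome 4, where CRK36 (AT4G04490), CRK37 (AT4G04500) and CRK38 (AT4G04510) are neighbours.

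Seedlings of the Col-0 accession, 2 weeks old, either overexpressed the long noncoding RNA ELENA1 (OX) or were wild type (WT). Each genotype was sampled at 0 h, without peptide, and after 1 h, 6 h and 12 h in liquid medium with 5 µM elf18, giving 8 groups of 3 libraries and 24 libraries in all. Neither the promoter behind the overexpression nor the number of transgenic lines is stated in the labels, and ELENA1 itself is not analysed here, so the genotype labels were not checked against it. No group was kept in liquid medium without peptide, so differences from 0 h may hold effects of the peptide, of the transfer or of the hour, which cannot be told apart. The labels call the 3 replicates of a group biological without saying whether they were separate cultures, so p-values measure the spread between these libraries, whatever its source. Replicates of a condition shared a sequencing pool, so pool and condition cannot be told apart.

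CRKs are receptor kinases of the plasma membrane, with DUF26 repeats of conserved cysteines outside the cell and a serine/threonine kinase domain inside it. Several take part in the signalling that follows recognition of bacterial patterns: elf18, an epitope of bacterial elongation factor Tu, is bound by the receptor EFR, and CRK2, CRK28 and CRK36 are known to act with the partners of such receptors. Many members respond to salicylic acid and to reactive oxygen, and WRKY factors, which bind the W box, are among the regulators of defence genes of this kind.

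Depth ran between 18767661 and 85230211 counts per library, and replicate 3 of every group was the shallowest, at 18767661 to 23645600. The median SD of log2 CPM (counts scaled to the library total times its TMM factor) within a group was 0.0881 to 0.159. In replicate 1 of OX at 1 h, replicate 1 of OX at 6 h and replicate 3 of WT at 12 h, longer transcripts had lower counts than in the other libraries of their groups. Windows of 75 bases, the read length, were unique in the genome for at least 96.9% of the exon positions of most members, but for 84.8% in CRK6, 86.1% in CRK22, 87.1% in CRK13 and 87.8% in CRK8. How reads with several places were counted is not stated in the labels.

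Levels between members were compared on the length-scaled values that the authors deposited (FPKM, 1 value per group, with no spread). At 0 h in WT, CRK29 stood highest with 61.7 FPKM, followed by CRK19 with 34.4 FPKM and CRK10 with 22.2 FPKM. CRK29 overlaps CRK28 by 470 bases on the same strand, so their levels are not fully separate. CRK23 and CRK32 stood lowest there, with 0.0705 and 0.165 FPKM. The highest value of any member in any group was 161 FPKM, for CRK29 in WT at 1 h. CRK9 reached 128 FPKM in OX at 12 h, CRK11 125 FPKM in OX at 1 h and CRK19 124 FPKM in WT at 1 h. CRK23 never passed 0.274 FPKM.

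The summed CRK transcripts were higher after the start of treatment in both genotypes, and the sums of the array and of the other loci followed different courses. The summed level of the 20 array members was 356.5 ± 20.5 CPM in OX at 0 h, 999.8 ± 74.7 at 1 h, 1021 ± 80.8 at 6 h and 1220 ± 2.18 at 12 h (SD, n = 3 each). The same sum in WT was 320.1 ± 41.1, 1033 ± 122, 1074 ± 58.2 and 1043 ± 20.7 CPM at these times. The array stayed near or above its 1 h level through 12 h, and every later library of either genotype lay above every 0 h library.

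The summed level of the 19 other members was highest at 1 h. It was 345.7 ± 11.1 CPM in OX at 0 h, 864.4 ± 40.9 at 1 h, 543 ± 37.3 at 6 h and 658.3 ± 8.74 at 12 h, and in WT 318.7 ± 21.3, 902.2 ± 85.5, 578.1 ± 34 and 573.6 ± 17.4 CPM. At 12 h the OX libraries lay above the WT libraries in both sums, at 1219 to 1223 against 1019 to 1056 CPM for the array and 648.8 to 665.9 against 556.2 to 591 CPM for the other loci. The sums weigh the abundant members most, and no test was made on them. At 1 h CRK29, CRK2 and CRK3 held 309.5 ± 29.4, 201.3 ± 6.82 and 163 ± 6.12 CPM of the sum of the other loci in OX, and 339.5 ± 17.7, 195.2 ± 37.5 and 194 ± 19.2 CPM in WT. In whole seedlings, fewer cells of a type and less RNA per cell cannot be told apart.

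**Figure D1:**
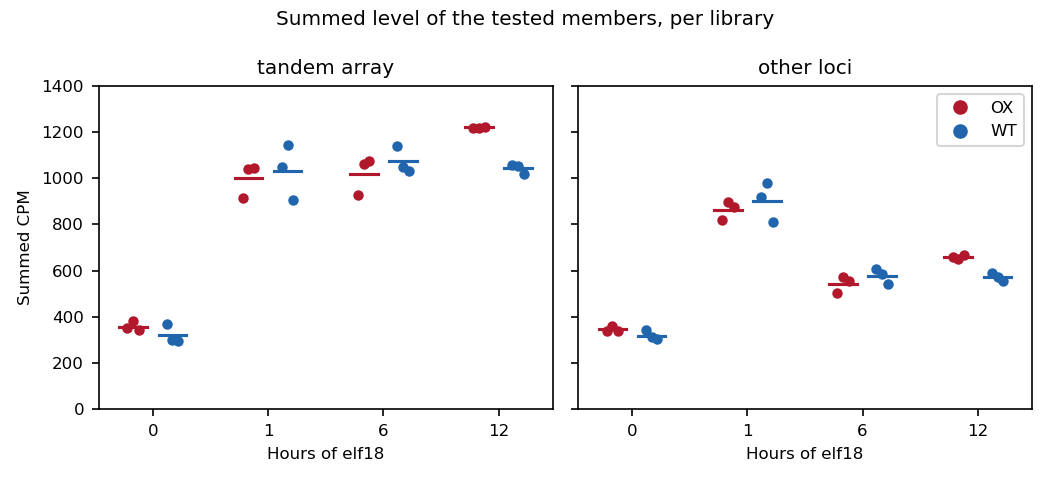
Summed CPM of the tested members per library (points) and group mean (bars), for the tandem array and the other loci, by hours of elf18, with OX left of WT. The array sum stays near or above its 1 h level, reaching 1220 CPM in OX at 12 h, while the sum of the other loci is highest at 1 h (864.4 CPM in OX and 902.2 CPM in WT).

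Most array members rose at each later time against 0 h. At 1 h, 15 of 20 were higher and 1 lower in OX (35.2% of all genes tested were called higher and 33.7% lower), and 12 were higher and 1 lower in WT (35.2% and 32.6% of all genes). At 6 h, 18 were higher and 1 lower in OX (30.1% and 28.8% of all genes), and 17 and 1 in WT (29.8% and 28.1%). At 12 h, 17 were higher and 1 lower in OX (34.9% and 35.2% of all genes), and 16 and 2 in WT (35.2% and 37.4%). The median log2 change of the array was 1.01, 1.74 and 2.00 in OX and 0.74, 1.71 and 1.89 in WT at 1 h, 6 h and 12 h, beside medians between -0.04 and 0.01 over all genes. In either direction, members of the whole family called at 1 h, 6 h and then 12 h numbered 30, 34 and 34 of 39 in OX, where 68.8%, 58.9% and 70% of all genes were called. In WT they numbered 29, 33 and 34, where 67.8%, 57.8% and 72.5% of all genes were.

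The 19 other members were more divided. In OX 12 were higher and 2 lower at 1 h (35.2% and 33.7% of all genes). At 6 h 13 and 2 were (30.1% and 28.8%), and at 12 h 12 and 4 (34.9% and 35.2%). In WT 8 were higher and 8 lower at 1 h, 42.1% each, beside 35.2% and 32.6% of all genes. At 6 h 13 and 2 were (29.8% and 28.1%), and at 12 h 11 and 5 (35.2% and 37.4%). The median log2 change of these members was 0.69, 0.66 and 1.02 in OX and 0.21, 0.63 and 0.65 in WT. The 3 comparisons within a genotype share its 0 h libraries, and the difference between the array and the other loci was not tested.

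At 1 h CRK36 and CRK37 were called in opposite directions in OX and WT, and at 6 h and 12 h 0 members were. The highest group mean of an array member fell at 1 h for 4 members in OX and 5 in WT, at 6 h for 5 and 8, and at 12 h for 11 and 6. Of the other loci, it fell at 1 h for 5 members in OX and 6 in WT, at 6 h for 2 and 3, and at 12 h for 9 and 7. Pearson r between members was taken over the 8 group means of log2 CPM, as a description. Its median was 0.54 between array members, 0.44 between an array member and another member and 0.18 between other members.

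**Figure D2:**
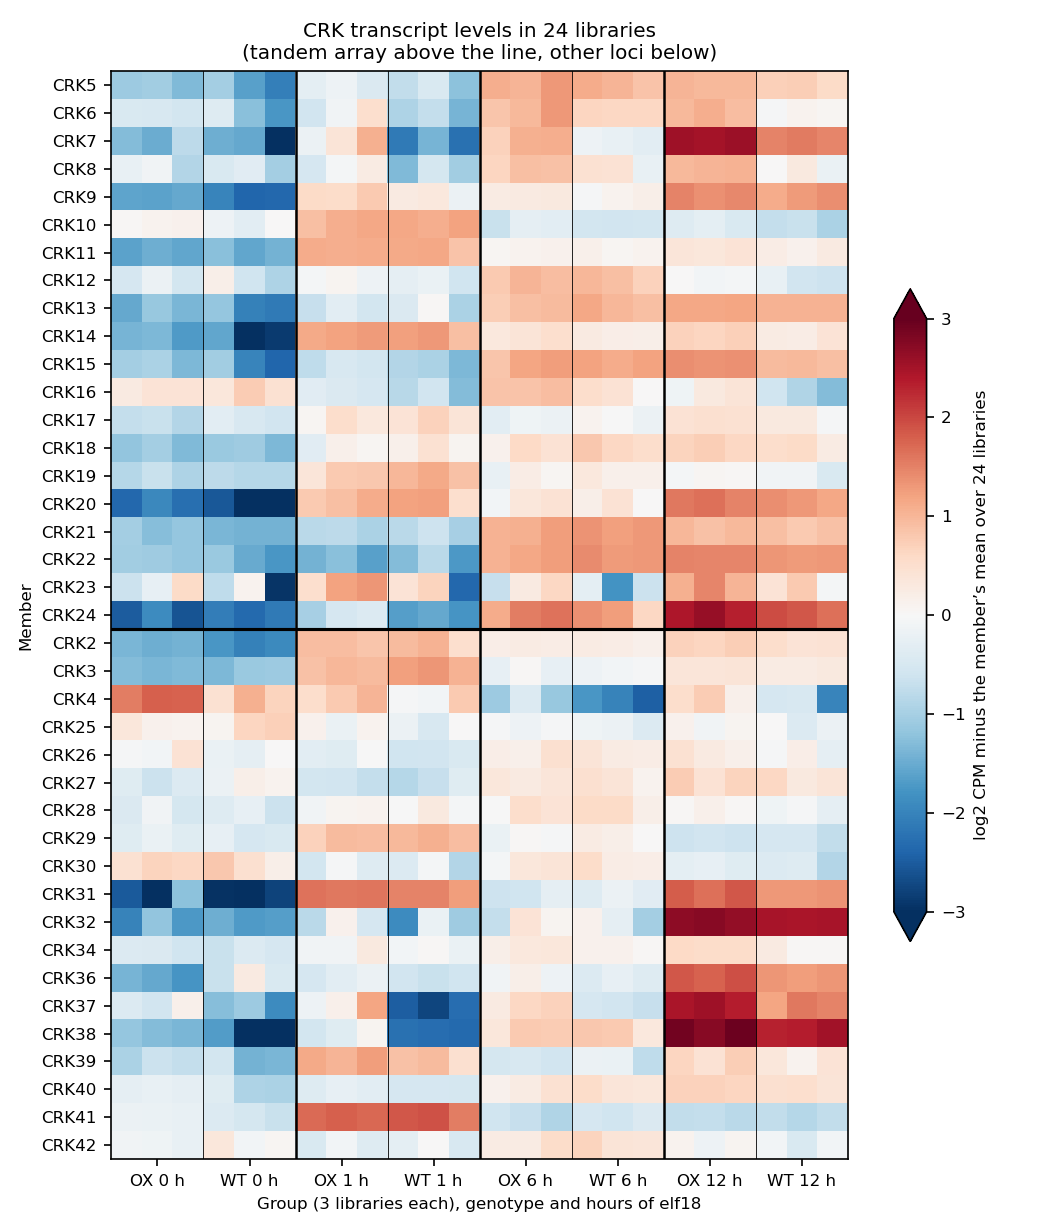
Heat map of log2 CPM minus the member's own mean over the 24 libraries, with members down the page and libraries across, grouped by time, red above and blue below the mean. Most array members are below their mean at 0 h and above it at 12 h, when 17 of 20 were called higher in OX and 16 in WT.

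Some members peaked at 1 h. CRK11, also known as RLK3, is a kinase gene induced by oxidative stress, salicylic acid and pathogens. It had 277, 271 and 276 CPM in OX and 280, 284 and 230 CPM in WT at 1 h, against 42, 46.1 and 43.3 CPM in OX and 53, 43.4 and 47.6 CPM in WT at 0 h. Every 1 h library lay above every 0 h library, with a log2 change of 2.65 ± 0.08 (SE) in OX and 2.46 ± 0.08 in WT (adjusted p = 4e-17 and 8.1e-17, edgeR's quasi-likelihood test, used for all adjusted p below). Its level was lower again at 6 h, with 136.4 ± 2.76 CPM in OX and 137.4 ± 4.45 in WT, and at 12 h it was 164.6 ± 3.72 and 146.5 ± 6.73 (SD, n = 3 each).

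CRK2, known to phosphorylate the NADPH oxidase RBOHD, and its neighbour CRK3 followed a like course outside the array. CRK2 had 205, 205 and 193 CPM in OX and 210, 223 and 153 CPM in WT at 1 h, against 42, 39 and 40.4 CPM in OX and 32.2, 26.3 and 28.9 CPM in WT at 0 h. The 1 h and 0 h libraries did not overlap in either genotype, and the log2 change was 2.31 ± 0.10 in OX and 2.74 ± 0.10 in WT (adjusted p = 1e-14 and 5.9e-16). CRK3 rose by 2.28 ± 0.09 in OX and 2.39 ± 0.09 in WT at 1 h (adjusted p = 8e-16 and 2.7e-16).

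CRK41 was high at 1 h and no longer raised at 6 h. It had 38.4, 40.6 and 39 CPM in OX and 42.7, 44.2 and 34.3 CPM in WT at 1 h, against 10.5, 10.2 and 10.1 CPM in OX and 8.82, 8.25 and 7.48 CPM in WT at 0 h. By 6 h its level was 7.117 ± 0.745 CPM in OX, below 0 h by -0.51 ± 0.09 (adjusted p = 7.1e-05), and 8.275 ± 0.429 in WT, at 0.00 ± 0.09 (adjusted p = 0.99). The log2 change at 1 h was 1.94 ± 0.09 in OX and 2.30 ± 0.09 in WT (adjusted p = 2.2e-14 and 1.1e-15). At 12 h CRK41 was below its 0 h level in both, by -0.55 ± 0.09 and -0.26 ± 0.10 (adjusted p = 2e-05 and 0.02).

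Other array members rose late. CRK21 had 93.9, 95.9 and 109 CPM in OX and 116, 107 and 114 CPM in WT at 6 h, against 22.7, 18.9 and 20.6 CPM in OX and 17.7, 17.2 and 17.2 CPM in WT at 0 h. At 1 h it still had 26.1, 26.7 and 23.8 CPM in OX and 26, 29.9 and 23.2 CPM in WT, so most of its rise fell after 1 h. The log2 change at 6 h was 2.26 ± 0.09 in OX and 2.69 ± 0.09 in WT (adjusted p = 6e-15 and 5.5e-16).

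CRK22, next to CRK21 and chosen after its values were seen, showed a like course. At 1 h its log2 change was -0.33 ± 0.15 in OX and 0.21 ± 0.15 in WT (adjusted p = 0.059 and 0.24) and 2.24 ± 0.15 and 2.76 ± 0.16 at 6 h (adjusted p = 4.4e-11 and 1.7e-12). CRK22 shares 290 distinct 75-base windows with CRK13, whose overexpression is known to raise resistance to Pseudomonas through salicylic acid, so the counts of these members are not fully separate.

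CRK9 and CRK20 rose early and stood higher still at 12 h. CRK9 had 113, 105 and 111 CPM in OX and 88, 98.7 and 106 CPM in WT at 12 h, against 13.6, 13.4 and 14 CPM in OX and 10.3, 7.81 and 7.94 CPM in WT at 0 h. The libraries did not overlap, and the log2 change was 3.01 ± 0.12 in OX and 3.48 ± 0.12 in WT (adjusted p = 1.5e-15 and 2.6e-16). CRK20, whose induced expression is known to trigger cell death, rose at 1 h by 3.09 ± 0.21 in OX and 4.01 ± 0.22 in WT (adjusted p = 1.5e-11 and 3.1e-13), and by 3.75 ± 0.20 and 4.26 ± 0.22 at 12 h (adjusted p = 3.4e-13 and 1.3e-13).

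The largest rises of the family at 12 h, picked for their size, were those of CRK24 in OX and CRK38 in WT. CRK24 had 6.3, 7.08 and 5.85 CPM in OX and 4.5, 4.27 and 3.64 CPM in WT at 12 h, against 0.206, 0.313 and 0.195 CPM in OX and 0.278, 0.231 and 0.266 CPM in WT at 0 h. That is a log2 change of 4.72 ± 0.22 in OX and 4.01 ± 0.22 in WT (adjusted p = 2.9e-14 and 4.3e-13), with no overlap. CRK38 rose by 4.10 ± 0.20 in OX and 4.77 ± 0.23 in WT (adjusted p = 7.4e-14 and 3.5e-14), and CRK31 by 4.09 ± 0.21 and 4.34 ± 0.22 (adjusted p = 9.7e-14 and 1.3e-13). The rise of CRK31 in WT was early, as its WT mean was highest at 1 h, at 21.2 times the 0 h mean. In OX its mean was highest at 12 h.

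Fewer members fell than rose, except among the other loci in WT at 1 h, where 8 did each. CRK4 was called lower at every time in both genotypes, and at 6 h it had 0.733, 1.17 and 0.705 CPM in OX and 0.463, 0.389 and 0.282 CPM in WT, against 4.48, 5.41 and 5.31 CPM in OX and 2.14, 3.23 and 2.47 CPM in WT at 0 h. The log2 change at 6 h was -2.52 ± 0.26 in OX and -2.71 ± 0.29 in WT (adjusted p = 2.5e-08 and 5.9e-08), with no overlap. CRK30 changed by -0.88 ± 0.18 in OX and -1.03 ± 0.18 in WT at 12 h (adjusted p = 0.00015 and 2.9e-05). CRK25 was lower in WT at 1 h, by -0.72 ± 0.15 (adjusted p = 0.00028), where its change in OX was -0.20 ± 0.15 (adjusted p = 0.25), and it overlaps a gene on the other strand by 492 bases.

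Within the array, CRK10 and CRK16 were the members called lower at any time. CRK10 was higher at 1 h, by 0.97 ± 0.10 in OX and 1.30 ± 0.10 in WT (adjusted p = 1.8e-08 and 1.4e-10), and lower at 12 h, by -0.46 ± 0.10 and -0.61 ± 0.10 (adjusted p = 0.00029 and 1.3e-05). CRK16 was lower at 1 h, by -0.76 ± 0.20 in OX and -1.35 ± 0.21 in WT (adjusted p = 0.0017 and 7.8e-06). At 12 h CRK16 was called lower in WT, with the lowest change of the array (-1.37), and was not called lower in OX. CRK16 overlaps CRK17 over 1190 bases on the same strand, so its level cannot be separated cleanly from that of CRK17.

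The loci beside the array were not called higher with it at 12 h. Of the 5 counted loci nearest on each side, 10 in all, 0 were higher and 6 lower in OX (34.9% and 35.2% of all genes). In WT 0 were higher and 8 lower (35.2% and 37.4%). At an unadjusted p under 0.05 (edgeR), 0 of these loci were higher and 7 lower in OX, and 0 and 8 in WT. Their log2 changes lay between -1.32 and 0.30 in OX and between -1.70 and 0.04 in WT, while those of the array lay between -0.46 and 4.72 in OX and between -1.37 and 4.26 in WT. At 1 h the flanking loci were mixed, with 3 higher and 2 lower in OX (35.2% and 33.7% of all genes). In WT 4 were higher and 2 lower (35.2% and 32.6%). The contrast between array and flanks was not tested as a set.

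**Figure D3:**
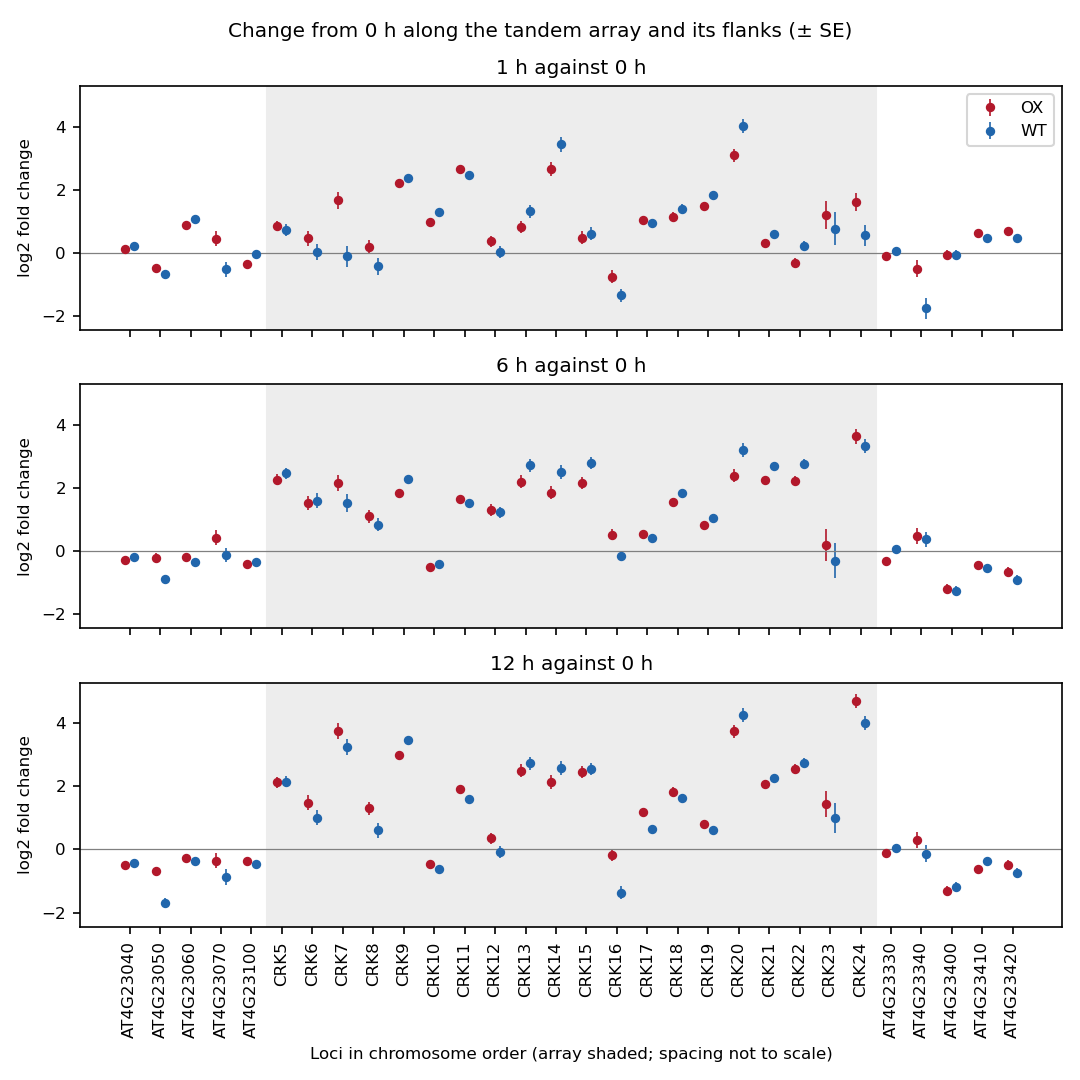
Log2 fold change (± SE) at 1 h, 6 h and 12 h against 0 h for the 20 array members and the 5 nearest counted loci on each side, in chromosome order, with OX left of WT. At 12 h the array spans -0.46 to 4.72 in OX and -1.37 to 4.26 in WT, while the flanking loci lie at or below 0.30 in OX and 0.04 in WT.

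Other gene groups moved over the same hours, and their counts stand beside the shares of all genes given above for each comparison. The 7 early elf18 and flg22 marker genes were all higher at 1 h in both genotypes, with summed levels of 1200 to 1310 CPM in OX and 1150 to 1510 in WT, against 185 to 212 CPM in OX and 102 to 179 in WT at 0 h. Of 9 WRKY factor genes, 5 were higher and 3 lower in OX and 6 and 3 in WT at 1 h, 3 and 1 in OX and 5 and 1 in WT at 6 h, and 9 and 0 in OX and 7 and 0 in WT at 12 h, the last also at an unadjusted p under 0.05. Of 6 leaf mesophyll markers, 5 were higher in OX and 4 in WT at 1 h, with summed levels of 32000 to 39700 CPM in OX and 28200 to 34000 in WT. At 12 h, 5 of them were lower and 1 higher in each genotype, with summed levels of 4110 to 4530 CPM in OX and 4080 to 5340 in WT, against 17300 to 22700 CPM in OX and 12800 to 20600 in WT at 0 h. Of 9 clock genes, 2 were higher and 7 lower in OX and 2 and 6 in WT at 12 h, no marker's group mean was at 0, and the part of cell types and time of day in the CRK changes was not tested.

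Between the genotypes, most CRKs that differed were higher in OX. At 0 h, 9 of 39 members were higher and 2 lower in OX (7.7% of all genes tested were called higher and 6.91% lower). At 1 h, 6 were higher and 0 lower (2.79% and 2.9% of all genes), at 6 h 2 and 0 (0.857% and 0.661%), and at 12 h 8 and 0 (0.923% and 0.723%). In either direction, 14.6%, 5.7%, 1.52% and 1.65% of all genes were called at these times. At an unadjusted p under 0.05, edgeR gave 2 members lower at 1 h, 2 at 6 h and 0 at 12 h, and DESeq2 called 1, 0 and 0 lower. The array held 3, 4, 1 and 5 of the members called higher at 0 h, 1 h, 6 h and 12 h, and the other loci held 6, 2, 1 and 3.

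At 12 h nearly all members lay slightly higher in OX. The log2 fold change was positive for 38 of 39 members, with a median of 0.28, against 51.2% positive and a median of 0.01 over all genes. At 6 h it was positive for 18 of 39, with a median of -0.01. The slope on log2 transcript length of log2 CPM, less each gene's mean over the 24 libraries, was taken per library. It was -0.153, -0.142 and -0.29 in WT at 12 h and -0.082, -0.0199 and -0.0751 in OX. Longer transcripts thus stood relatively lower in every WT 12 h library than in any OX 12 h library. The length correction among the alternatives worked within groups only, and the part of length in the shift at 12 h was not tested. At 12 h 8 members passed the threshold, but 1 to 3 did when any single 12 h library was left out, and 3 when the 3 libraries of steep length trend were. Of 12 root markers 2 were lower in OX at 12 h, with summed levels of 215 to 223 CPM in OX and 239 to 250 in WT, and 5 stomatal markers summed to 47.1 to 51.4 CPM in OX and 37.4 to 45.9 in WT; their part in the result was not tested.

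**Figure D4:**
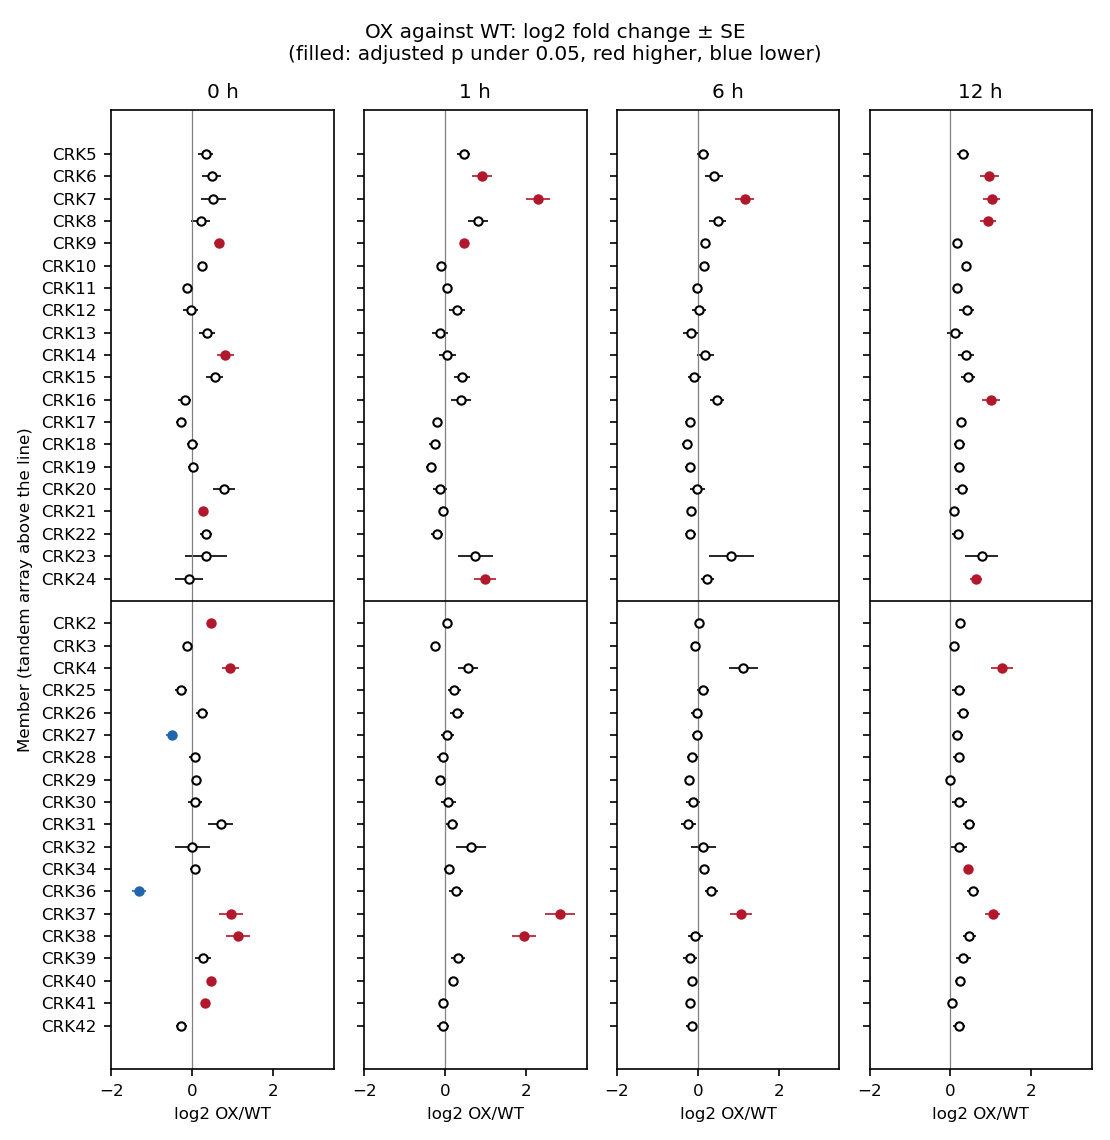
Log2 fold change of OX over WT (± SE) for the 39 members at each of the 4 times; filled points passed adjusted p under 0.05. CRK37 passed at all 4 times and CRK7 at each time after 0 h, and 38 of 39 points lie right of 0 at 12 h.

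Differences over 1 on the log2 scale that passed under every alternative processing were found for 4 members, CRK7 of the array and the neighbours CRK36, CRK37 and CRK38 outside it. The 300 bases before the annotated start of each are shown because each had such a difference, though not at every time. Those of CRK11, which holds more W box cores than the other windows shown, are added. They are read 5′ to 3′ on the strand of the gene from the RefSeq TAIR10.1 genome, with capitals for the W box core TTGAC on either strand (GTCAA as printed for the other strand). CRK7 is at chr4:12125364-12125663 on the plus strand, CRK36 at chr4:2234690-2234989 on the minus strand, CRK37 at chr4:2238070-2238369 on the plus strand, CRK38 at chr4:2241772-2242071 on the plus strand and CRK11 at chr4:12143859-12144158 on the minus strand.
CRK7: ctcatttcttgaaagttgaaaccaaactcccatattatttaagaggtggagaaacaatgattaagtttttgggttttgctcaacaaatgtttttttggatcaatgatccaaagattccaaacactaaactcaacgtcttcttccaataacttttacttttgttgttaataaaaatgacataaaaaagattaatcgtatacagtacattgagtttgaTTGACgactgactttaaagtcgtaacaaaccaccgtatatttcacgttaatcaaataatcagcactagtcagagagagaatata
CRK36: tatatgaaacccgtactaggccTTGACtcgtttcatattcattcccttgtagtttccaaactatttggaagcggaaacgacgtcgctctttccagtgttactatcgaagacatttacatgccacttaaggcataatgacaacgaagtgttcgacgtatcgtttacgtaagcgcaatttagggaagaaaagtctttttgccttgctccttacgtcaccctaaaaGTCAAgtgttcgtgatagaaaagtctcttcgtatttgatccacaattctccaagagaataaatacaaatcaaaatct
CRK37: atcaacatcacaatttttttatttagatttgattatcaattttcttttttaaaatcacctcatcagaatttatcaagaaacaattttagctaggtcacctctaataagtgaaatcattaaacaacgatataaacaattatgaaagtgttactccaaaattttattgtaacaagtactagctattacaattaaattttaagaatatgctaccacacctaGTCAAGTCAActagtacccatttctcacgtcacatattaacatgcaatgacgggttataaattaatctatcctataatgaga
CRK38: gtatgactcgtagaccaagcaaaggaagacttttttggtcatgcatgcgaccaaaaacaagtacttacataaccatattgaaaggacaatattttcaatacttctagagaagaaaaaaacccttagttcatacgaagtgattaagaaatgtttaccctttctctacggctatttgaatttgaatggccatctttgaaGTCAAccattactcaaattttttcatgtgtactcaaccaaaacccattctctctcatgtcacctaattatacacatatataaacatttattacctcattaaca
CRK11: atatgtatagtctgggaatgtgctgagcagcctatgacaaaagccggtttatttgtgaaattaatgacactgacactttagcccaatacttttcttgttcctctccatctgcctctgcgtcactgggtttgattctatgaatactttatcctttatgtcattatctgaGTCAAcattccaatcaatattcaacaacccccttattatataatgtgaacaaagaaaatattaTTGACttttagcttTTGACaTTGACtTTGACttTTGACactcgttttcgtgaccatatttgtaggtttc

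In CRK37 the 2 cores stand side by side, at 82 and 77 bases before the start, and CRK36 has one of its 2 at 77 bases too. CRK7 holds 1 core at 84 bases and CRK38 holds 1 at 103 bases. CRK11 holds 6 cores, 5 of them within 69 bases of the start. Across the family, 30 of 39 windows held at least 1 core (76.9%), 19 at least 2 (48.7%) and 10 at least 3 (25.6%), against 50.4%, 17.9% and 5.07% of the windows of 27443 protein-coding genes. Of the array 11 of 20 and of the other loci 8 of 19 held at least 2. Some windows lie in a neighbouring gene, among them that of CRK16 within CRK17 and that of CRK28 within CRK29. Windows of related members may be alike, and the difference from the share of all genes was not tested. These are matches of letters in a window, and no binding was measured.

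CRK7 is known, with CRK6, for a role in the response to reactive oxygen outside the cell. It had 3.37, 4.94 and 7.89 CPM in OX libraries at 1 h, against 0.871, 1.43 and 0.797 CPM in WT libraries. The lowest OX library was above the highest WT library, and the log2 fold change was 2.30 ± 0.30 (adjusted p = 3.6e-05). Against 0 h, CRK7 rose in OX at 1 h by 1.67 ± 0.27 (adjusted p = 1e-05), where its change in WT was -0.11 ± 0.34 (adjusted p = 0.79), and these responses differed by 1.78 ± 0.43 (adjusted p = 0.0086).

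CRK7 was higher in OX later as well. It had 6.09, 7.95 and 8.11 CPM in OX against 3.42, 3.23 and 3.06 CPM in WT at 6 h, a log2 fold change of 1.16 ± 0.24 (adjusted p = 0.013). At 12 h it had 21.9, 21.3 and 22.3 CPM in OX against 10.7, 11.1 and 10.4 CPM in WT, a log2 fold change of 1.02 ± 0.21 (adjusted p = 0.015). The libraries did not overlap at either time, though the 6 h call was lost on omission of WT replicate 1 or 2 of that time, and the 12 h call on omission of any 12 h library other than OX replicate 2. At 0 h it had 1.54, 1.36 and 2.19 CPM in OX against 1.37, 1.3 and 0.418 CPM in WT, with overlapping libraries and a log2 fold change of 0.52 ± 0.31 (adjusted p = 0.29).

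CRK37 was called higher in OX at every time. It had 0.755, 0.932 and 1.9 CPM in OX libraries at 1 h, against 0.152, 0.124 and 0.171 CPM in WT libraries, with no overlap and a log2 fold change of 2.85 ± 0.37 (adjusted p = 3.7e-05). The 1 h values rest on 36, 54 and 39 counts in OX and 7, 4 and 3 counts in WT. In the authors' length-scaled values CRK37 reached no more than 2.41 FPKM in any group, in OX at 12 h.

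At 0 h CRK37 had 0.635, 0.559 and 0.925 CPM in OX against 0.347, 0.396 and 0.228 CPM in WT (log2 fold change 0.95 ± 0.30, adjusted p = 0.036). At 6 h it had 1.01, 1.28 and 1.36 CPM against 0.592, 0.559 and 0.517 CPM (1.07 ± 0.26, adjusted p = 0.04), and at 12 h 4.54, 4.85 and 4.29 CPM against 1.9, 2.52 and 2.35 CPM (1.04 ± 0.19, adjusted p = 0.0072). The OX libraries lay above the WT libraries at all 4 times, but the 0 h and 6 h calls were lost in 7 and 8 of the alternatives, among them the omission of any single 6 h library, and the 12 h call was lost without replicate 1 of WT at 12 h.

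Against 0 h, CRK37 was higher in OX at 1 h by 0.69 ± 0.26 (adjusted p = 0.023), with overlapping libraries, and lower in WT by -1.21 ± 0.44 (adjusted p = 0.019), without overlap. These responses differed by 1.90 ± 0.51 (adjusted p = 0.016), a call lost without replicate 2 of WT at 0 h. The loci whose log2 CPM followed that of CRK37 most closely over the 24 libraries were RLK1 (AT5G60900, Pearson r = 0.967), AT1G26390 (r = 0.961), WAK3 (r = 0.958), CRK7 (r = 0.942) and AT5G26690 (r = 0.941), as a description.

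CRK38 differed early. It had 1.55, 1.76 and 2.39 CPM in OX libraries at 1 h, against 0.479, 0.466 and 0.455 CPM in WT libraries, a log2 fold change of 1.95 ± 0.29 with no overlap (adjusted p = 0.00017). At 0 h it had 1.01, 0.917 and 0.877 CPM in OX against 0.712, 0.248 and 0.266 CPM in WT, also without overlap (1.13 ± 0.29, adjusted p = 0.0097), a call lost without WT replicate 2 or OX replicate 1 of that time. By 6 h the groups overlapped, at 2.9, 3.92 and 3.88 CPM in OX and 3.98, 3.91 and 2.82 CPM in WT, with a log2 fold change of -0.06 ± 0.19 (adjusted p = 0.93). The change at 6 h against 0 h was smaller in OX than in WT, by -1.19 ± 0.35 (adjusted p = 0.04), a call lost in 11 of the alternatives.

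CRK36, known to associate with the cytoplasmic kinase BIK1, was lower in OX before treatment. It had 4.46, 4.05 and 3.41 CPM in OX libraries at 0 h, against 7.33, 14.2 and 8.55 CPM in WT libraries, with no overlap and a log2 fold change of -1.32 ± 0.17 (adjusted p = 1e-05). At 12 h it had 42.7, 39.9 and 44.8 CPM in OX against 29.5, 28.1 and 29.2 CPM in WT, where the OX libraries all lay higher and the difference missed the threshold (0.55 ± 0.15, adjusted p = 0.061). At 1 h and 6 h the OX libraries also lay above the WT libraries, by 0.27 ± 0.17 and 0.33 ± 0.16 (adjusted p = 0.36 and 0.36).

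The response of CRK36 differed between the genotypes at each time. It rose by 1.19 ± 0.17 in OX at 1 h (adjusted p = 3.4e-06), against -0.40 ± 0.17 in WT (adjusted p = 0.038). At 6 h it rose by 1.52 ± 0.17 in OX (adjusted p = 1.5e-07), against -0.14 ± 0.16 in WT (adjusted p = 0.48), and at 12 h by 3.39 ± 0.17 in OX (adjusted p = 1.2e-13), against 1.51 ± 0.16 in WT (adjusted p = 1.5e-08). The difference in log2 change was 1.59 ± 0.24, 1.66 ± 0.24 and 1.87 ± 0.23 (adjusted p = 0.00011, 0.00019 and 3.7e-05), all against the same 0 h libraries, where WT lay higher.

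**Figure D5:**
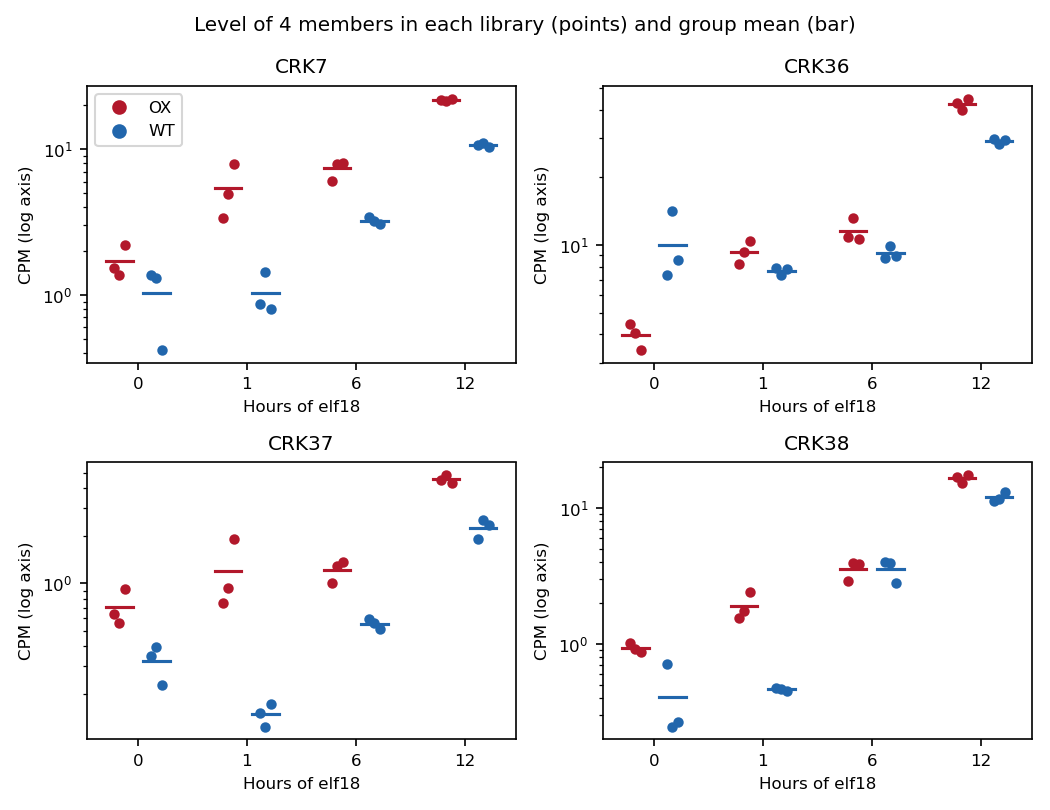
CPM of CRK7, CRK36, CRK37 and CRK38 in each library (points) with the group mean (bar), on a log axis, by hours of elf18, OX left of WT, 3 libraries per group. CRK37 lies higher in OX at all 4 times, CRK7 and CRK38 are separated most at 1 h, and CRK36 is lower in OX at 0 h (3.41 to 4.46 against 7.33 to 14.2 CPM) and higher in OX at 12 h (39.9 to 44.8 against 28.1 to 29.5 CPM).

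The other calls at 0 h were mostly smaller. CRK9 had 13.6, 13.4 and 14 CPM in OX against 10.3, 7.81 and 7.94 CPM in WT, a log2 fold change of 0.65 ± 0.12 (adjusted p = 0.00054). CRK2 had 42, 39 and 40.4 CPM in OX against 32.2, 26.3 and 28.9 CPM in WT (0.47 ± 0.10, adjusted p = 0.002). Neither overlapped between the genotypes, and both calls were kept in every alternative.

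CRK4, whose induced expression is known to trigger cell death, had 4.48, 5.41 and 5.31 CPM in OX against 2.14, 3.23 and 2.47 CPM in WT at 0 h (0.94 ± 0.21, adjusted p = 0.0041). CRK40 had a log2 fold change of 0.47 ± 0.11 (adjusted p = 0.0056), and the remaining calls, CRK14, CRK21 and CRK41 higher and CRK27 lower in OX, had values of 0.82, 0.26, 0.32 and -0.51. CRK27 had 3.62, 2.97 and 3.51 CPM in OX against 4.13, 5.25 and 5.01 CPM in WT and no overlap (adjusted p = 0.012).

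The number of 0 h calls depended on single libraries. CRK14 had 14.9, 15.6 and 12.1 CPM in OX against 13.4, 5 and 5.36 CPM in WT, so that WT replicate 1 overlapped the OX libraries. In place of 11 members, 17 were called on omission of WT 0 h replicate 1, 4 when WT 0 h replicate 2 was omitted, and 7 when OX 0 h replicate 1 was. Clock genes differed at 0 h as well, with 3 of 9 higher and 3 lower in OX (7.7% and 6.91% of all genes). Among them were CCA1 at -0.94 ± 0.20, LHY at -1.02 ± 0.19 and TOC1 at 0.54 ± 0.07 (adjusted p = 0.0026, 0.00071 and 6.5e-06). The part of clock genes in the result was not tested.

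At 12 h the array members called higher in OX were the consecutive CRK6, CRK7 and CRK8, with CRK16 and CRK24. CRK6 had 19.7, 21.6 and 19.2 CPM in OX against 9.9, 10.9 and 10.5 CPM in WT (0.96 ± 0.23, adjusted p = 0.033), and at 1 h 6.83, 9.34 and 14.3 CPM against 5.36, 6.15 and 3.87 CPM (0.92 ± 0.25, adjusted p = 0.029). CRK8 had 3, 3.09 and 3.17 CPM in OX against 1.55, 1.88 and 1.34 CPM in WT at 12 h (0.92 ± 0.20, adjusted p = 0.023). None of these groups overlapped, but CRK6 and CRK8 share 306 distinct 75-base windows, so their counts are not fully separate.

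CRK24, at the far end of the array, had 0.587, 0.828 and 0.876 CPM in OX against 0.37, 0.404 and 0.341 CPM in WT at 1 h (0.99 ± 0.28, adjusted p = 0.039), and at 12 h a log2 fold change of 0.63 ± 0.15 (adjusted p = 0.035). CRK16 was called at 12 h (1.00 ± 0.22, adjusted p = 0.019) on 32, 74 and 17 counts in OX against 20, 14 and 5 counts in WT, with the overlap with CRK17 given above. The 1 h calls of CRK6 and CRK24 were lost in 4 and 7 of the alternatives. CRK9 was higher in OX at 1 h, by 0.48 ± 0.11 (adjusted p = 0.0096).

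Outside the array, CRK4 had 2.25, 2.64 and 1.72 CPM in OX against 1.1, 1.11 and 0.392 CPM in WT at 12 h (1.27 ± 0.27, adjusted p = 0.017). CRK34 had 9.78, 9.48 and 9.55 CPM in OX against 7.91, 6.66 and 6.66 CPM in WT (0.43 ± 0.10, adjusted p = 0.037). Neither overlapped between the genotypes. The 12 h calls of CRK4, CRK6, CRK8, CRK16, CRK24 and CRK34 were each lost in 6 to 8 of the alternatives.

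CRK29 and CRK11, abundant members taken after their values were seen, were not called between the genotypes at any time. CRK29 had 276, 330 and 323 CPM in OX against 335, 359 and 325 CPM in WT at 1 h, with overlapping libraries, the overlap with CRK28 given above and a log2 fold change of -0.13 ± 0.09 (adjusted p = 0.41). CRK11 had 164, 161 and 169 CPM in OX against 148, 139 and 152 CPM in WT at 12 h, where the libraries did not overlap and the difference of 0.17 ± 0.08 missed the threshold (adjusted p = 0.22).

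The number of members that differed between OX and WT in their change from 0 h depended on single libraries. At 1 h 3 of 39 members had a larger log2 change in OX and 1 a smaller one (6.06% and 6.64% of all genes), at 6 h 1 and 4 (3.43% and 2.92%), and at 12 h 4 and 0 (3.07% and 2.45%). In either direction, 12.7%, 6.34% and 5.52% of all genes were called. In place of 4, 5 and 4 members at 1 h, 6 h and then 12 h, 12, 15 and 8 were called on omission of replicate 1 of WT at 0 h, and 2, 1 and 1 on omission of replicate 2. Omission of replicate 3 of WT at 1 h gave 9 at 1 h. At 6 h, 1 to 3 were called on omission of replicate 3 of WT at 0 h, replicate 1 of WT at 6 h, replicate 1 or 3 of OX at 0 h, or replicate 1 of OX at 6 h. At 12 h, 2 were called on omission of replicate 2 or 3 of WT at 12 h, replicate 2 or 3 of OX at 0 h, or any replicate of OX at 12 h. At 12 h edgeR gave 2 smaller at an unadjusted p under 0.05 and DESeq2 called 0. These differences use the 0 h libraries of both genotypes, so a member that differed at 0 h enters them with that difference. CRK2, CRK21, CRK38, CRK40 and CRK41, called higher in OX at 0 h, had smaller changes in OX at 1 h or 6 h, while CRK37, also higher at 0 h, had a larger one at 1 h. CRK27 and CRK36, lower in OX at 0 h, had larger changes, as did CRK7, CRK16 and CRK17, which missed an adjusted p of 0.05 at 0 h. CRK17 was at -0.29 ± 0.12 there (unadjusted p = 0.022, adjusted p = 0.11), with the OX libraries below the WT libraries, and that difference enters its response.

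Related genes were set beside the family. Of 17 salicylic acid genes, 6 were higher in OX at 0 h, 7 at 1 h, 5 at 6 h and 5 at 12 h, and 0 were lower. Of all genes, 7.7%, 2.79%, 0.857% and 0.923% were higher at these times. At an unadjusted p under 0.05 (edgeR), 1 of the 17 was lower at 0 h and 2 at 1 h. In OX over WT at 0 h, 1 h, 6 h and then 12 h, PR1, a salicylic acid marker, stood on the log2 scale at 1.03 ± 0.28, 3.00 ± 0.31, 3.12 ± 0.31 and 2.11 ± 0.28 (adjusted p = 0.013, 3.1e-06, 2.4e-06 and 0.00025). Of 11 other DUF26 genes tested, the CRK-like kinase gene AT4G11890 was higher in OX at 0 h and 12 h, by 0.94 ± 0.16 and 0.65 ± 0.15 (adjusted p = 0.00023 and 0.028), and the plasmodesmal protein gene PDLP1 was lower at 0 h, by -0.56 ± 0.14 (adjusted p = 0.0083). At 6 h 1 of the 11 was called higher and 0 lower (0.857% and 0.661% of all genes), and at 1 h 0 were called (5.7%).

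Of 7 partners of CRKs in pattern signalling, the NADPH oxidase gene RBOHD and the flagellin receptor gene FLS2 were higher in OX at 0 h, by 0.52 ± 0.13 and 0.36 ± 0.10 (adjusted p = 0.0083 and 0.014), and the elf18 receptor gene EFR was at -0.07 ± 0.08 (adjusted p = 0.66). At 1 h, 6 h and 12 h 0 of the 7 were called (5.7%, 1.52% and 1.65% of all genes). RBOHD was then at -0.40 ± 0.13, -0.31 ± 0.13 and 0.03 ± 0.13 (adjusted p = 0.07, 0.27 and 0.92). Its change from 0 h was smaller in OX at 1 h and 6 h, by -0.92 ± 0.18 and -0.83 ± 0.18 (adjusted p = 0.0017 and 0.0077). Among 9 WRKY factor genes, 2 were higher and 2 lower in OX at 0 h (7.7% and 6.91% of all genes). WRKY40 was at -1.21 ± 0.15 and WRKY54 at 0.92 ± 0.18 (adjusted p = 5e-06 and 0.0011). The 7 early elf18 and flg22 markers had 3 higher and 1 lower in OX at 0 h (7.7% and 6.91% of all genes). Among them were PHI-1 at 0.53 ± 0.14, FRK1 at 0.90 ± 0.27 and NHL10 at -0.73 ± 0.20 (adjusted p = 0.012, 0.026 and 0.015).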

How the data were processed

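The deposited table of read counts per gene and the FPKM values per group were made by the authors. The submitters' processing notes list the build TAIR10 and, among tools, DESeq2, Cuffdiff, Cufflinks 2.1.1 and TopHat2 2.0.8, with no roles. For the counting tool and its use of strand, nothing is given in the sources used here. Coordinates and sequences come from RefSeq TAIR10.1. The labels' protocols give polyA-selected, stranded, single-end libraries.

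Counts were normalised by TMM and tested with edgeR 4.0.16 (quasi-likelihood, R 4.3.3, limma 3.58.1) in 1 fit of 8 group means over all 24 libraries, after a filter at a minimum count of 10. P-values were adjusted by Benjamini-Hochberg over all 21015 genes, with a threshold of 0.05. SEs were derived from the F statistic. FPKM served only to compare levels between members. DESeq2 1.42.0, other scalings and filters, fewer libraries, thinning and a replicate block were alternatives. Depth was 18767661 to 85230211 counts per library, which limits the members of fewest counts most. Fits were tested on simulated data.

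Members and lists were chosen with earlier results of these data known. Genes named are, for OX against WT and for differences in response, the called members up to 8 by adjusted p, and for each time against 0 h, up to 3 in each direction within the array and the other loci, with up to 4 members against the majority and up to 3 from each other list. Others are said to be chosen after their values were seen.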

Additional observations from a re-analysis of the deposited data

Results flagged for a closer look

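For 13 member results the log2 change against 0 h differed between OX and WT by a test of the difference itself. Values are the OX change minus the WT change ± SE, with edgeR's adjusted p. At 1 h, 6 h and 12 h, 4, 5 and 4 of 39 members were called, beside 12.7%, 6.34% and 5.52% of all genes. At 1 h the difference was 1.59 ± 0.24 (adjusted p = 0.00011) for CRK36, 1.90 ± 0.51 (adjusted p = 0.016) for CRK37 and 1.78 ± 0.43 (adjusted p = 0.0086) for CRK7, all with the larger change in OX. CRK2 had the smaller change in OX at 1 h, by -0.43 ± 0.14 (adjusted p = 0.043). At 6 h CRK36 stood at 1.66 ± 0.24 (adjusted p = 0.00019). The other 6 h results were smaller in OX, with CRK38 at -1.19 ± 0.35 (adjusted p = 0.04), CRK40 at -0.61 ± 0.16 (adjusted p = 0.02), CRK41 at -0.52 ± 0.13 (adjusted p = 0.02) and CRK21 at -0.43 ± 0.12 (adjusted p = 0.033). At 12 h the change was larger in OX for CRK36, by 1.87 ± 0.23 (adjusted p = 3.7e-05), for CRK16, by 1.19 ± 0.28 (adjusted p = 0.013), for CRK27, by 0.68 ± 0.19 (adjusted p = 0.034), and for CRK17, by 0.55 ± 0.16 (adjusted p = 0.047). All 13 rest on the same 0 h libraries, and only the 3 results of CRK36 passed under every alternative run.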

How the results depend on the processing

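Of 234 called member results, 176 were called under every alternative run, 58 were lost in at least 1 and 0 changed direction. Against 0 h, counts of called members stayed within 1.5 times. For OX against WT the 11 members called at 0 h became 5 with the compared libraries alone, 6 when thinned to the smallest library and 4 to 17 with 1 library left out. The 6 at 1 h became 3 with the compared libraries alone. The 2 at 6 h became 1 with the compared libraries alone, 0 when thinned (edgeR) and 0 to 1 with 1 library left out. The 8 at 12 h became 14 with the compared libraries alone, 3 when thinned, 3 on omission of those 3 libraries whose counts fell steeply with length and 1 to 3 with 1 library left out. For the difference in response, the 4 at 1 h became 1 with the compared libraries alone, 9 with a length correction chosen after seeing the data, and 2 to 12 with 1 library left out, 12 without WT 0 h replicate 1. The 5 at 6 h became 2 with the compared libraries alone, 2 when thinned, 2 without the 3 libraries and 1 to 15 with 1 library left out, 15 without WT 0 h replicate 1. The 4 at 12 h became 2 when thinned, 2 without the 3 libraries and 1 to 8 with 1 library left out, 8 without WT 0 h replicate 1 and 1 when WT 0 h replicate 2 was omitted. Why these counts moved was not tested. Of 84 pairs of libraries with the same replicate number, 33 had deviations from the group means correlated over 0.1 (median r 0.0506, highest 0.544), against 30 of 168 pairs with different numbers (median -0.0323, highest 0.342). As not every same-number pair passed 0.1, the numbers were not taken to pair the libraries, although replicate 3 was the shallowest throughout. This rule cannot tell whether libraries of the same number share an effect, since such an effect need not raise every pair. With the replicate number as a block, 10, 7, 2 and 10 members were called for OX against WT at 0 h, 1 h, 6 h and 12 h, and 5, 6 and 4 for the difference in response.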
